A study of Danio rerio with 6 samples.

Results

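The genes described here are the axon guidance ligands and receptors of the zebrafish: semaphorins with their plexin and neuropilin receptors, ephrins with their Eph receptors, netrins with their UNC5 and DCC receptors, and SLIT proteins with their ROBO receptors. They were chosen by gene symbol, looked up by Ensembl gene ID, with a family prefix of sema, plxn, nrp1, nrp2, epha, ephb, efna, efnb, ntn, unc5, robo or slit, or the symbol dcc. This gave 103 of the 32520 genes listed, and all 103 reached 0.5 TPM (a unit for the share of a library's transcripts, corrected for gene length) in at least 3 of the 6 libraries. In 102 of them every library reached that level, and unc5a reached it in 5 libraries, 2 labelled +/+ and 3 labelled -/-. The genes comprise 57 ligands, 45 receptors and unc50, which the prefix takes in although it encodes a Golgi protein and not a netrin receptor. For 68 genes the name table gave only a family symbol, and the copy (such as a or b) was taken from the single free RefSeq gene of that symbol on the same chromosome; SEMA3B, SEMA3G and SEMA6A keep the family symbol.

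The samples were 6 pools of 30 whole larvae, 5 days after fertilization, with no treatment, kept at a light cycle of 14 h light and 10 h dark. Poly(A) RNA was read as stranded paired-end libraries of 75 bases per read. By their labels, 3 pools were (stim2a;stim2b)+/+ and 3 were (stim2a;stim2b)-/-, and the series is titled as the phenotype of a stim2 knockout. STIM2 proteins sense calcium in the endoplasmic reticulum and open ORAI channels in the plasma membrane. RNA from whole larvae mixes all tissues, so fewer cells of a type and less RNA per cell cannot be told apart, and nothing in the labels ties the pools to separate clutches. A p-value here therefore speaks of the spread among these 6 pools, which may be technical. 

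The RNA of both targeted genes went against the labels. Expression of stim2a (chromosome 1, 14466860 to 14488074) was 0.329, 0.252 and 0.403 TPM under +/+ and 1.31, 1.41 and 1.199 TPM under -/-. It reached 0.5 TPM only in the libraries labelled -/-, and passed the filter through them alone, so its level is given as a description with no test. The duplicate stim2b (chromosome 7, 62320134 to 62439872) was at 0.542, 0.475 and 0.722 TPM under +/+ and 1.52, 1.34 and 1.85 TPM under -/-, a log2 fold change of 0.94 ± 0.15 (SE; limma adjusted p = 0.00905). Both genes were higher in every library labelled -/- than in any labelled +/+. For stim2b the exact two-sided permutation test gave its smallest possible p of 0.1, and the call was kept in all 6 fits that left out 1 library. The deposited tables also carry names that run against the labels, and these names served for no grouping. Whether the 2 labels were exchanged was not tested; an exchange would turn the direction of every difference given below. The groups are named by their labels alone, as +/+ and -/-, with n = 3 libraries each and the values of replicates 1, 2 and 3 in that order. Genes at 1 TPM or more numbered 19582, 19620 and 20091 under +/+ and 20172, 20094 and 20363 under -/-, so that every library labelled -/- had more. The ratio of coverage to FPKM, a relative measure of depth, was 5.82, 5.75 and 5.53 under +/+ and 5.49, 4.64 and 5.93 under -/-, lowest in -/- replicate 2. The part of either in the results was not tested. Replicate 3 stood apart in both labels: it held the highest value of the 3 libraries for 95 of the 103 members under the label +/+ and for 95 under the label -/-, against 69.4% and 58.5% of all tested genes.

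Growing axons steer by cues that attract or repel the growth cone, the motile tip of the axon. Semaphorins act through plexins, with neuropilins as co-receptors for the secreted class 3; ephrins are membrane-bound and signal on contact to Eph receptor tyrosine kinases; netrins attract axons through DCC and repel them through UNC5 receptors; and SLIT proteins repel axons that carry ROBO receptors, as at the midline. In the zebrafish these systems pattern the retinotectal projection, the spinal commissures and the motor nerves, and several members also guide blood vessels.

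Of the 103 members, 60 were higher and 2 were lower in the libraries labelled -/- at a limma adjusted p under 0.05 (Benjamini-Hochberg over 22104 tested genes), where 28.8% of all tested genes were higher and 8.56% lower. The median log2 fold change, labelled -/- minus labelled +/+ on the log2(TPM + 0.5) scale, was 0.61 over the members and 0.21 over all tested genes, and 91 of the 103 values were above 0. A log2 fold change of at least 1 together with a call was found for 11 members, against 4.44% of all tested genes. In 68 members every library labelled -/- lay above every library labelled +/+, and in 4 every one lay below, where 38.2% and 16.2% of all tested genes did so. Most genes given in full below were chosen by a small limma p, which favours labels that do not overlap. Among ligands 26 of 57 were higher and 1 lower, and among receptors 34 of 45 were higher and 1 lower. The gene unc50 was not called, with a log2 fold change of -0.011 ± 0.095 (SE; limma adjusted p = 0.9303), and its values were 21.1, 19.9 and 23.6 TPM under +/+ and 21.8, 20.9 and 21.2 TPM under -/-. After each library was divided by its median gene ratio (called rescaling below), which takes the median of all tested genes from 0.21 to -0.00050, 51 members were higher and 9 lower against 20.9% and 21.3% of all tested genes, and the members' median was 0.40. With the replicate number as a block, 76 members were higher and 2 lower, against 43% and 12.8%, and with the block on rescaled values 64 were higher and 12 lower, against 27.2% and 27.6%.

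The calls depended on single libraries, most of all on +/+ replicates 1 and 2 and less on -/- replicates 1 and 3. Without +/+ replicate 1, and likewise without +/+ replicate 2, the calls left among these 103 genes were epha6 (higher) and plxnb2a.2 (lower), while 2.06% and 1.64% of all tested genes were higher and 1.7% and 1.6% lower. The other 60 called members then had limma adjusted p-values of 0.0505 to 0.163 without replicate 1 and 0.0551 to 0.166 without replicate 2. Leaving out -/- replicate 1 left 31 members higher and leaving out -/- replicate 3 left 28, each with 1 lower, at backgrounds of 14.6% and 14.5% higher and 5.79% and 5.51% lower. Without +/+ replicate 3 there were 67 higher and 1 lower (36.7% and 7.73% of all tested genes), and without -/- replicate 2 there were 61 and 1 (29.6% and 6.99%). Without replicate 3 of both labels, an alternative added after the data had been seen, 70 members were higher and 2 lower, at backgrounds of 39.1% and 9.03%. The members' median log2 fold change stayed between 0.44 and 0.72 in the 6 fits that left out 1 library.

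**Figure D1:**
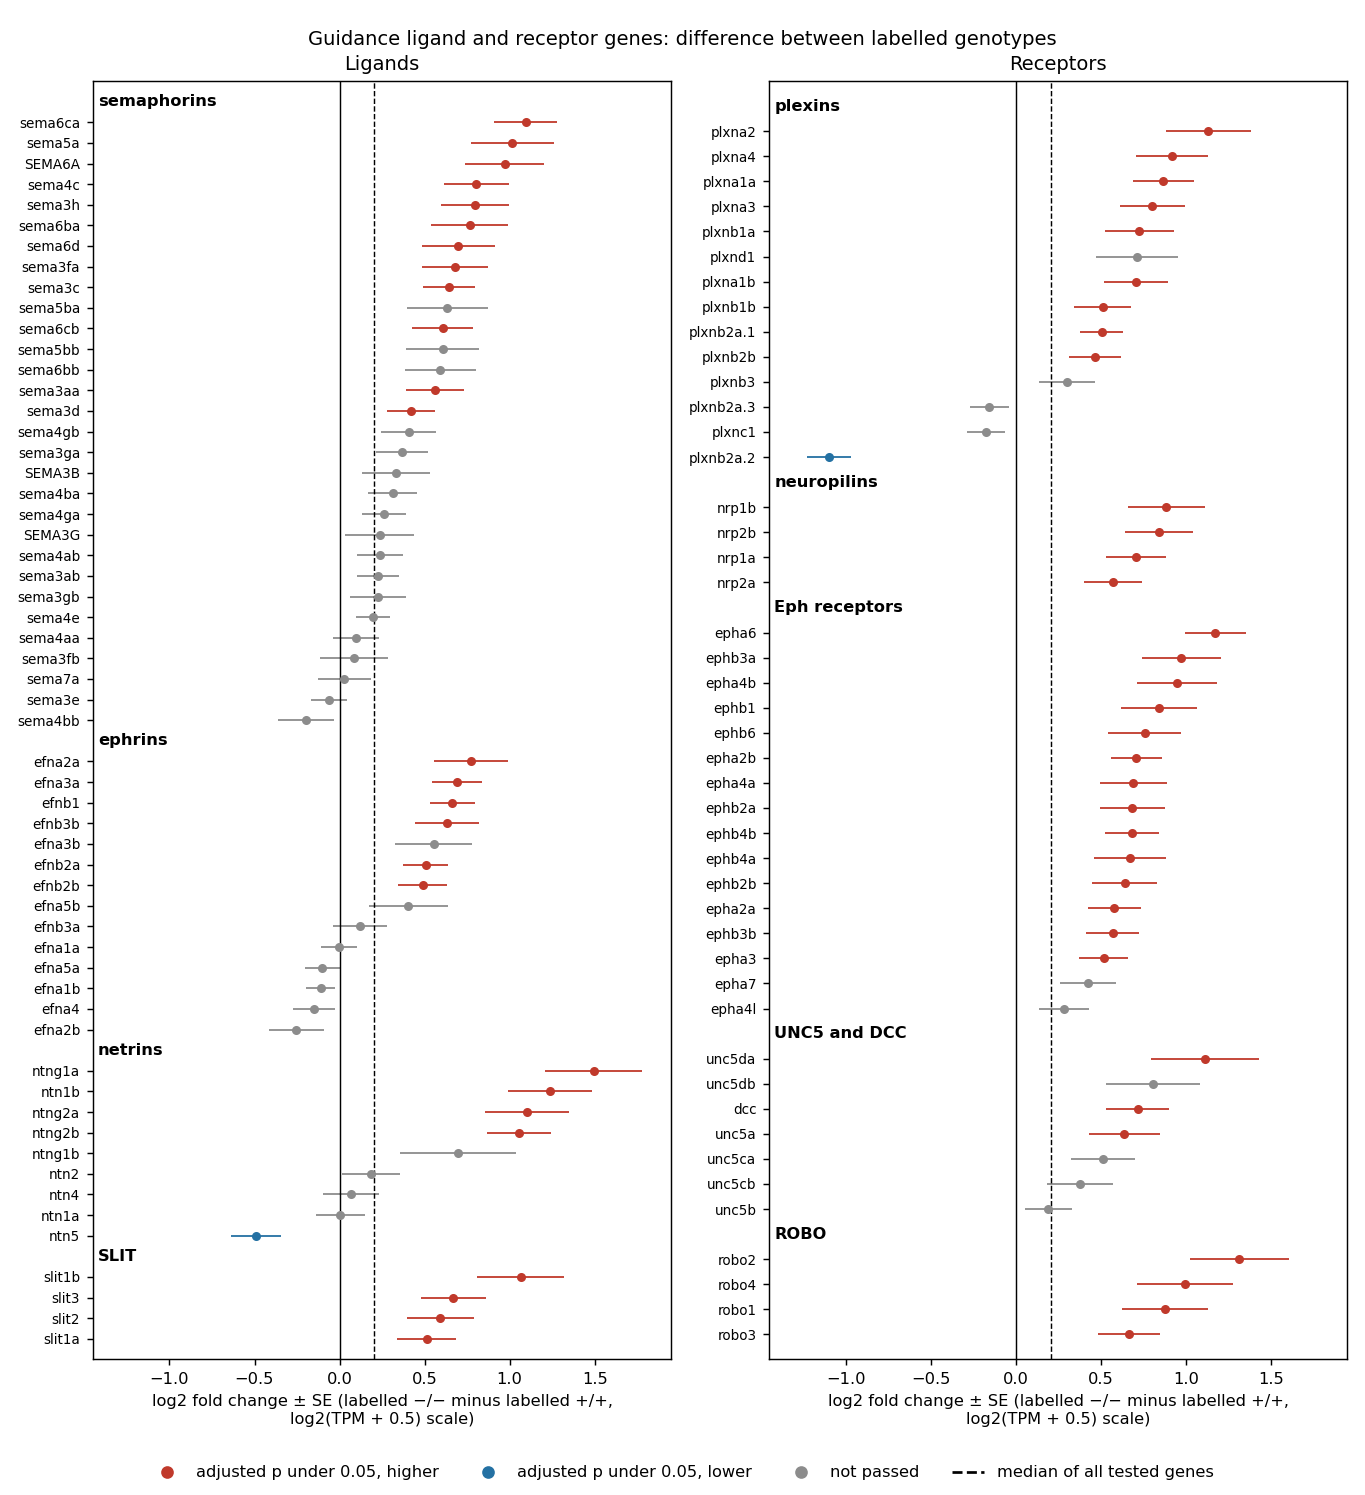
Log2 fold change with its standard error for 102 guidance genes (unc50 is left out), labelled -/- minus labelled +/+ on the log2(TPM + 0.5) scale, ligands on the left and receptors on the right, ordered within each family. Red points passed an adjusted p of 0.05 as higher and blue points as lower; the dashed line marks the median of all tested genes, 0.21, and most receptors lie to its right while ephrin-A genes lie on both sides of 0.

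Eph receptors were the family with the most calls among the receptors: 14 of 16 genes rose and none fell, with a median log2 fold change of 0.68, and 13 of 16 were higher and none lower after rescaling. All 8 EphB genes and 6 of 8 EphA genes were called. The shares over all tested genes were 28.8% higher and 8.56% lower, and 20.9% and 21.3% after rescaling. The most abundant, epha4a (chromosome 2, 40067808 to 40136024), encodes a receptor that binds ephrins of both classes and steers motor and hindbrain axons. It stood at 14.4, 14.7 and 20.7 TPM under +/+ and 23.96, 22.8 and 34.8 TPM under -/-, a log2 fold change of 0.69 ± 0.20 (SE; limma adjusted p = 0.0309). The epha6 gene (chromosome 1, 33969015 to 34201195) was at 1.08, 1.21 and 1.47 TPM under +/+ and 2.91, 3.08 and 4.502 TPM under -/-, a log2 fold change of 1.17 ± 0.18 (SE; limma adjusted p = 0.00804). Its values under both labels did not overlap, and it kept its call in all 6 fits that left out 1 library, the only one of the 60 higher members of which this held.

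The gene epha2b (chromosome 23, 24351304 to 24394719) was at 8.37, 8.65 and 11.4 TPM under +/+ and 15.04, 14.1 and 18.2 TPM under -/-, a log2 fold change of 0.71 ± 0.15 (SE; limma adjusted p = 0.0169). ephb4b (chromosome 23, 44349252 to 44401223), a receptor for ephrin-B2, was at 5.14, 4.997 and 6.55 TPM under +/+ and 8.93, 7.83 and 10.998 TPM under -/-, a log2 fold change of 0.68 ± 0.16 (SE; limma adjusted p = 0.02004). In all 4 genes the lowest library labelled -/- lay above the highest labelled +/+, which was replicate 3. Over the family 14 of 16 genes lay fully higher under the label -/-, against 38.2% of all tested genes. The duplicate of ephb4b, ephb4a, was the second most abundant Eph gene, with 10.4 ± 2.53 against 16.9 ± 4.34 TPM (mean ± SD, n = 3 per label). The other called genes had log2 fold changes of 0.97 for ephb3a, 0.95 for epha4b, 0.84 for ephb1, 0.76 for ephb6, 0.68 for ephb2a, 0.67 for ephb4a, 0.64 for ephb2b, 0.58 for epha2a, 0.57 for ephb3b and 0.52 for epha3. The gene ephb3b lost its call after rescaling (limma adjusted p = 0.0515). No call was made for epha7, which had a log2 fold change of 0.43 ± 0.17 (SE; limma adjusted p = 0.0733), nor for epha4l, at 0.28 ± 0.15 (SE; limma adjusted p = 0.151). With the replicate block epha7 was called higher (limma adjusted p = 0.0144), but not with the block on rescaled values (limma adjusted p = 0.0765).

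Among the ephrins, the ligands of those receptors, 6 of 14 genes rose and none fell, and after rescaling 5 were higher and 3 lower; the 3 are about the share of all tested genes that were lower then (21.3%). The 2 classes gave different counts: 4 of 5 ephrin-B genes, whose products cross the membrane, were higher, against 2 of 9 ephrin-A genes, whose products are held by a lipid anchor, and the median log2 fold changes were 0.51 and -0.0032. The ephrin-A count is below the 28.8% of all tested genes that were higher, and the difference between classes was not tested. The most abundant member of all was efna1b (chromosome 16, 23282655 to 23298149), at 28.9, 29.3 and 29.2 TPM under +/+ and 26.1, 28.9 and 25.9 TPM under -/-, with a log2 fold change of -0.11 ± 0.086 (SE; limma adjusted p = 0.316). Its values under both labels overlapped, and after rescaling it was called lower (limma adjusted p = 0.03905).

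Higher calls among the ephrins were led by efnb1 (chromosome 5, 36271016 to 36328688), at 9.09, 9.72 and 10.3 TPM under +/+ and 13.8, 14.6 and 18.9 TPM under -/-, a log2 fold change of 0.66 ± 0.13 (SE; limma adjusted p = 0.0153). The arterial and retinal ligand efnb2a (chromosome 9, 26103814 to 26127305), second in abundance among all members, was at 16.8, 17.4 and 22.2 TPM under +/+ and 25.1, 25.2 and 29.96 TPM under -/-, a log2 fold change of 0.51 ± 0.13 (SE; limma adjusted p = 0.0255). For efna3a (chromosome 19, 8144556 to 8339860) the values were 1.61, 1.98 and 2.32 TPM under +/+ and 3.195, 3.82 and 3.39 TPM under -/-, a log2 fold change of 0.69 ± 0.15 (SE; limma adjusted p = 0.0169). In these 3 genes the labels did not overlap. Over the 14 ephrins 6 lay fully higher under the label -/-, near the 38.2% of all tested genes. The other called ephrins, efna2a, efnb3b and efnb2b, had log2 fold changes of 0.77 for efna2a, 0.63 for efnb3b and 0.49 for efnb2b, and efnb2b lost its call after rescaling (limma adjusted p = 0.0634). Of the uncalled ephrins, efna3b and efna5b had log2 fold changes of 0.55 and 0.40 and were called higher with the replicate block (limma adjusted p = 0.00345 for efna3b and 0.0168 for efna5b). With the block on rescaled values efna3b was called and efna5b was not (limma adjusted p = 0.0222 for efna3b and 0.114 for efna5b). The block called 43% of all tested genes higher, and 27.2% on rescaled values. The remaining values were 0.12 for efnb3a, -0.0032 for efna1a, -0.10 for efna5a, -0.15 for efna4 and -0.25 for efna2b. After rescaling efna5a and efna2b joined efna1b among the lower calls (limma adjusted p = 0.0217 for efna5a and 0.0215 for efna2b). Ephrin-A2 and ephrin-A5 proteins repel retinal axons in the posterior tectum.

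Summed over genes, the EphA receptors were at 36.5, 38.1 and 50.8 TPM under +/+ and 64.4, 60.4 and 88.6 TPM under -/-. The ephrin-A genes together were at 78.1, 77.4 and 88.1 TPM under +/+ and 79.1, 81.98 and 88.5 TPM under -/-. Receptor sums were thus higher in every library labelled -/-, while the ranges of the ligand sums overlapped. The ratio of the EphA sum to the ephrin-A sum within each library is unchanged by rescaling. It was 0.467, 0.492 and 0.576 under +/+ and 0.814, 0.737 and 1.001 under -/-. For EphB over ephrin-B the ratio was 0.675, 0.634 and 0.7199 under +/+ and 0.789, 0.741 and 0.874 under -/-. Both ratios were higher in every library labelled -/- than in any labelled +/+. The ephrin-A sum rested mostly on efna1b, efna1a and efna5a, at 28.9, 17.2 and 15.3 TPM of 78.1 TPM in +/+ replicate 1. No such ratio was computed for other sets of genes, so these ratios have no background here.

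**Figure D2:**
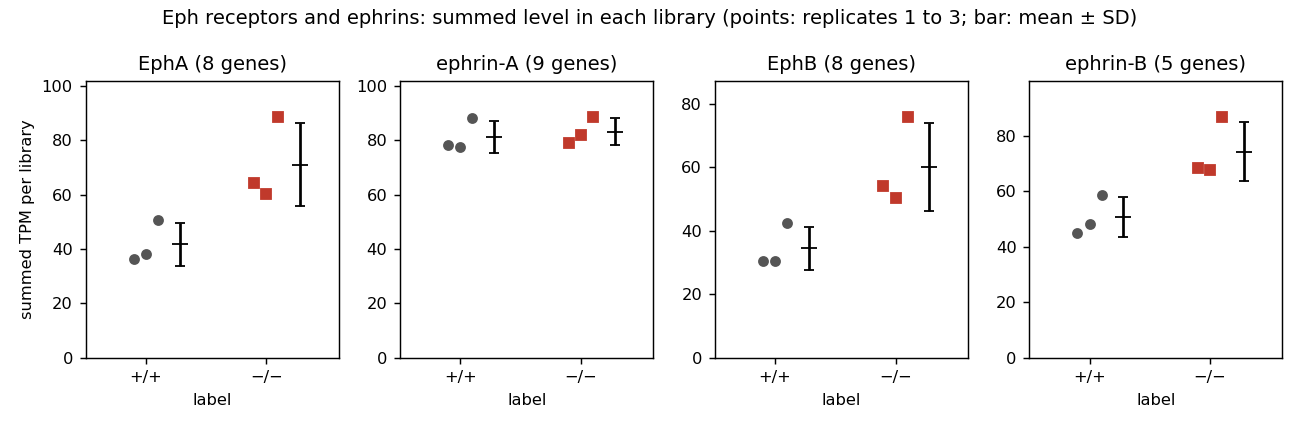
Summed TPM per library of the 8 EphA, 9 ephrin-A, 8 EphB and 5 ephrin-B genes, with 3 libraries per label as points and the mean ± SD as a bar beside them. The EphA, EphB and ephrin-B points of the libraries labelled -/- all lie above those labelled +/+, and the ephrin-A points overlap.

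Semaphorins were the largest family, and 12 of 30 genes rose and none fell, with a median log2 fold change of 0.41. After rescaling 10 were higher and 2 lower, where 20.9% and 21.3% of all tested genes were. By class, 5 of 12 secreted class 3 genes, 1 of 8 class 4 genes, 1 of 3 class 5 genes and 5 of 6 class 6 genes were higher, where 28.8% of all tested genes were. The counts of classes 4 and 5 lie below or near that share, and no difference between classes was tested. In class 3, 3 genes were higher and 1 lower after rescaling, and this higher count is near the 20.9% of all tested genes. Class 4 to class 6 proteins cross the membrane, and class 6 proteins bind plexin A receptors without a neuropilin. The most abundant, sema6d (chromosome 18, 40354998 to 40387862), was at 13.1, 11.8 and 18.4 TPM under +/+ and 21.1, 19.3 and 31.03 TPM under -/-, a log2 fold change of 0.70 ± 0.21 (SE; limma adjusted p = 0.0383). The largest difference in the family was that of sema6ca (chromosome 19, 390298 to 417381), at 1.97, 2.13 and 3.01 TPM under +/+ and 4.77, 5.29 and 6.78 TPM under -/-, a log2 fold change of 1.09 ± 0.18 (SE; limma adjusted p = 0.0105). Neither gene's values overlapped between labels.

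For sema4c (chromosome 5, 14529101 to 14648433), a ligand of plexin B2, the values were 4.47, 5.099 and 6.76 TPM under +/+ and 8.88, 8.45 and 12.3 TPM under -/-, a log2 fold change of 0.80 ± 0.19 (SE; limma adjusted p = 0.0204). The class 3 gene sema3c (chromosome 4, 22613625 to 22652944) was at 4.48, 5.04 and 5.28 TPM under +/+ and 7.498, 6.85 and 9.85 TPM under -/-, a log2 fold change of 0.64 ± 0.15 (SE; limma adjusted p = 0.0206). Both separated the labels fully. Over the family 19 of 30 semaphorins lay fully higher under the label -/-, against 38.2% of all tested genes. The other called genes of classes 5 and 6 had log2 fold changes of 1.02 for sema5a, 0.97 for SEMA6A, 0.76 for sema6ba and 0.61 for sema6cb. Those of class 3 were 0.80 for sema3h, 0.68 for sema3fa, 0.56 for sema3aa and 0.42 for sema3d; Sema3A is the classic agent of growth cone collapse. The calls of sema3aa and sema3d were lost after rescaling (limma adjusted p = 0.0524 for sema3aa and 0.129 for sema3d).

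No call was made for 18 semaphorins. Of these, 7 were called higher with the replicate block: their log2 fold changes were 0.63 for sema5ba, 0.61 for sema5bb, 0.59 for sema6bb, 0.41 for sema4gb, 0.37 for sema3ga, 0.33 for SEMA3B and 0.31 for sema4ba, with limma adjusted p-values under the block of 0.00258 for sema5ba, 0.00531 for sema5bb, 0.00294 for sema6bb, 0.0196 for sema4gb, 0.0138 for sema3ga, 0.0342 for SEMA3B and 0.0357 for sema4ba. With the block on rescaled values 3 of the 7 were called, sema5ba, sema5bb and sema6bb, and 4 were not (limma adjusted p = 0.111 for sema4gb, 0.229 for sema3ga, 0.438 for SEMA3B and 0.444 for sema4ba). The block called 43% of all tested genes higher, and 27.2% on rescaled values. The other 11 had log2 fold changes of 0.26 for sema4ga, 0.24 for SEMA3G, 0.24 for sema4ab, 0.23 for sema3ab, 0.23 for sema3gb, 0.19 for sema4e, 0.096 for sema4aa, 0.085 for sema3fb, 0.027 for sema7a, -0.062 for sema3e and -0.20 for sema4bb. After rescaling sema3e, which binds plexin D1 without a neuropilin, and sema4bb were called lower (limma adjusted p = 0.0287 for sema3e and 0.0265 for sema4bb). The uncalled sema3gb, sema4e and sema3e had means over 6 libraries of 17.1, 15.05 and 14.7 TPM. The called sema6ca had a mean of 3.99 TPM, and the lowest mean of the family was that of sema4aa, also uncalled. Whether abundance had a part in the calls was not tested.

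Plexins, the semaphorin receptors, held 9 higher genes and 1 lower gene among 14, with a median log2 fold change of 0.61, and after rescaling 7 were higher and 3 lower. Of all tested genes 28.8% were higher and 8.56% lower, and 20.9% and 21.3% after rescaling. Both lower counts of the plexins are near these shares. All 5 plexin A genes rose. plxna2 (chromosome 23, 32579495 to 33038423) was at 2.34, 2.03 and 3.62 TPM under +/+ and 5.44, 5.098 and 8.88 TPM under -/-, a log2 fold change of 1.13 ± 0.25 (SE; limma adjusted p = 0.0178). plxna1a (chromosome 23, 34321237 to 34753811) was at 2.71, 2.71 and 3.36 TPM under +/+ and 5.199, 4.79 and 7.48 TPM under -/-, a log2 fold change of 0.87 ± 0.18 (SE; limma adjusted p = 0.0158). Neither overlapped between labels, and plxna4, plxna3 and plxna1b had log2 fold changes of 0.92, 0.80 and 0.71. Over the 14 plexins 9 lay fully higher and 3 fully lower under the label -/-, against 38.2% and 16.2% of all tested genes. Of the plexin B genes, plxnb1a, plxnb1b and plxnb2b were higher, at log2 fold changes of 0.73 for plxnb1a, 0.51 for plxnb1b and 0.47 for plxnb2b, and the last 2 lost their calls after rescaling (limma adjusted p = 0.0693 for plxnb1b and 0.0832 for plxnb2b). No call was made for plxnb3 and plxnd1, which had log2 fold changes of 0.30 ± 0.17 (SE; limma adjusted p = 0.175) and 0.71 ± 0.24 (SE; limma adjusted p = 0.0506) and were called with the replicate block (limma adjusted p = 0.0319 for plxnb3 and 0.00212 for plxnd1). With the block on rescaled values plxnd1 was called and plxnb3 was not (limma adjusted p = 0.00729 for plxnd1 and 0.455 for plxnb3). The block called 43% of all tested genes higher, and 27.2% on rescaled values. The plexin D1 receptor acts in endothelial cells, and the deposited gene model for plxnd1 spans just 1.24 kb, so its value comes from that interval alone. The sema7a receptor gene plxnc1 had a log2 fold change of -0.18 ± 0.11 (SE; limma adjusted p = 0.225) and was called lower after rescaling (limma adjusted p = 0.0169).

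A run of 3 neighbouring models on chromosome 4 carry the name plxnb2a. The first, plxnb2a.1 (chromosome 4, 14449233 to 14531687), was the most abundant plexin and rose, at 14.9, 15.4 and 18.9 TPM under +/+ and 21.98, 21.9 and 26.5 TPM under -/-, a log2 fold change of 0.50 ± 0.13 (SE; limma adjusted p = 0.0235). The second, plxnb2a.2 (chromosome 4, 14636309 to 14642379), fell, at 3.45, 3.07 and 3.41 TPM under +/+ and 1.44, 1.31 and 1.11 TPM under -/-, a log2 fold change of -1.098 ± 0.13 (SE; limma adjusted p = 0.00284). It was the largest lower value among the members and kept its call in all 6 fits that left out 1 library. The last, plxnb2a.3, had a log2 fold change of -0.15 ± 0.11 (SE; limma adjusted p = 0.293) and was called lower after rescaling (limma adjusted p = 0.0411). The models of plxnb2a.2 and plxnb2a.3 span 6.07 and 5.08 kb against 82.5 kb for plxnb2a.1. No source names how reads shared by similar models were divided, and values for these 3 are therefore uncertain.

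All 4 neuropilin genes rose, under both scalings, with a median log2 fold change of 0.77. Among all tested genes 28.8% were higher, and 20.9% after rescaling, and no difference from these shares was tested. Neuropilins bind class 3 semaphorins and also vascular endothelial growth factors. nrp1a (chromosome 24, 1162325 to 1356668), the most abundant, was at 13.7, 14.9 and 20.6 TPM under +/+ and 24.6, 23.95 and 32.1 TPM under -/-, a log2 fold change of 0.71 ± 0.18 (SE; limma adjusted p = 0.0231). nrp2b (chromosome 9, 14367570 to 14504834) was at 7.52, 8.38 and 11.1 TPM under +/+ and 15.3, 13.4 and 21.4 TPM under -/-, a log2 fold change of 0.84 ± 0.20 (SE; limma adjusted p = 0.0208). nrp1b (chromosome 2, 43469241 to 43507278) was at 5.43, 4.96 and 7.17 TPM under +/+ and 10.7, 8.29 and 15.3 TPM under -/-, a log2 fold change of 0.88 ± 0.23 (SE; limma adjusted p = 0.0242). None of the 3 overlapped between labels, and the lowest of the 4 log2 fold changes was 0.57 ± 0.17 (SE; limma adjusted p = 0.0357) for nrp2a. All 4 neuropilins lay fully higher under the label -/-, as did 38.2% of all tested genes. The ratio of the summed plexins to the summed semaphorins within a library was 0.425, 0.421 and 0.433 under +/+ and 0.462, 0.456 and 0.462 under -/-.

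Of the 9 netrin genes 4 rose and 1 fell, mostly among the netrin-G genes, a difference between kinds that was not tested. Of the 4 netrin-G genes, whose products are tethered to the membrane and bind partners other than DCC, 3 rose, while of the 5 secreted netrins 1 rose and 1 fell, under both scalings. Of all tested genes 28.8% were higher and 8.56% lower, and 20.9% and 21.3% after rescaling. The higher count of the secreted netrins is below or near these shares, and their lower count is 1 gene. The largest log2 fold change of all 103 members belonged to ntng1a (chromosome 24, 29381946 to 29529252), at 2.71, 2.63 and 4.74 TPM under +/+ and 7.24, 9.44 and 14.8 TPM under -/-, a log2 fold change of 1.49 ± 0.29 (SE; limma adjusted p = 0.0136). ntng2a (chromosome 8, 11993150 to 12111461) was the most abundant netrin, at 3.58, 4.57 and 5.62 TPM under +/+ and 9.81, 7.47 and 14.7 TPM under -/-, a log2 fold change of 1.102 ± 0.25 (SE; limma adjusted p = 0.0187). ntng2b (chromosome 21, 3979107 to 4032650) was at 2.74, 3.23 and 3.84 TPM under +/+ and 6.26, 6.48 and 9.499 TPM under -/-, a log2 fold change of 1.05 ± 0.19 (SE; limma adjusted p = 0.0117). The labels did not overlap in any of these 3 genes, where 38.2% of all tested genes lay fully higher under the label -/-. The fourth, ntng1b, overlapped between labels at 0.984, 1.08 and 2.11 TPM under +/+ and 2.66, 1.34 and 3.98 TPM under -/-, with a log2 fold change of 0.70 ± 0.34 (SE; limma adjusted p = 0.135), and was called with the replicate block (limma adjusted p = 0.0136, and 0.0425 with the block on rescaled values).

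Netrin-1, the floor plate attractant of commissural axons, has a pair of genes here. ntn1b (chromosome 3, 25708549 to 25814097) was at 1.47, 1.199 and 1.997 TPM under +/+ and 3.34, 3.67 and 6.395 TPM under -/-, a log2 fold change of 1.24 ± 0.25 (SE; limma adjusted p = 0.0149). ntn1a was at 1.72, 1.71 and 2.23 TPM under +/+ and 1.89, 1.67 and 2.12 TPM under -/-, with a log2 fold change of 0.0054 ± 0.14 (SE; limma adjusted p = 0.978). The lowest ntn1b value under the label -/- exceeded the highest under the label +/+, whereas the ntn1a values of both labels interleaved. The secreted ntn5 (chromosome 7, 20431633 to 20453661) was lower, at 3.06, 2.704 and 3.78 TPM under +/+ and 1.96, 2.05 and 2.29 TPM under -/-, a log2 fold change of -0.49 ± 0.15 (SE; limma adjusted p = 0.0345), and lost that call with each of the 6 libraries left out in turn. The genes ntn2 and ntn4 had log2 fold changes of 0.19 ± 0.17 (SE; limma adjusted p = 0.398) and 0.066 ± 0.16 (SE; limma adjusted p = 0.762).

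**Figure D3:**
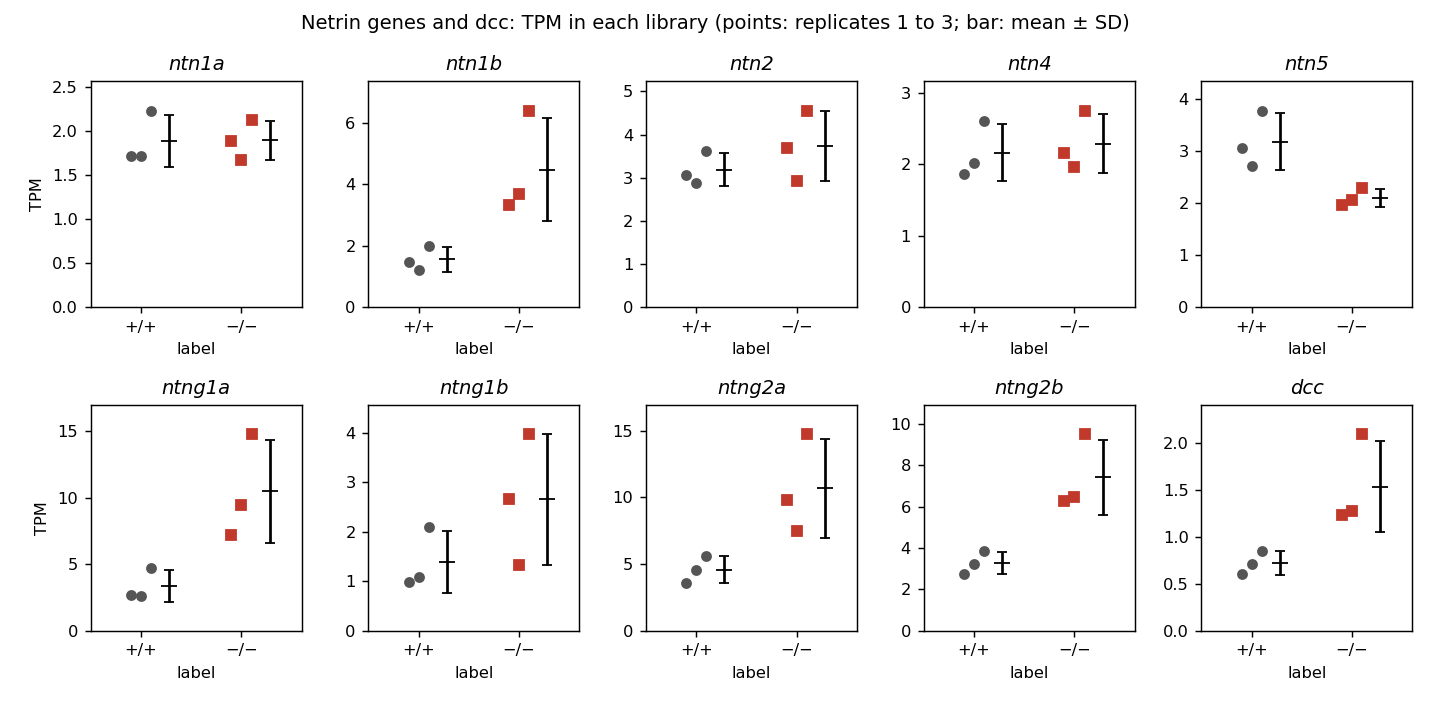
TPM of the 9 netrin genes and of dcc in each library, 3 libraries per label as points with the mean ± SD as a bar, each panel on its own scale from 0. The points of ntn1b, ntng1a, ntng2a, ntng2b and dcc are all higher under the label -/-, those of ntn5 are all lower, and those of the other 4 genes overlap.

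Among the netrin receptors, 3 of 7 genes rose and none fell, and 2 were higher after rescaling. Of all tested genes 28.8% were higher, and 20.9% after rescaling. With 7 genes the count after rescaling is near that share, and no difference from either share was tested. dcc (chromosome 5, 31748 to 201600), the receptor for attraction, was low throughout, at 0.601, 0.712 and 0.856 TPM under +/+ and 1.24, 1.28 and 2.098 TPM under -/-, a log2 fold change of 0.72 ± 0.18 (SE; limma adjusted p = 0.0248). unc5da (chromosome 21, 16273782 to 16632808) was at 1.19, 1.37 and 2.57 TPM under +/+ and 3.201, 3.17 and 6.77 TPM under -/-, a log2 fold change of 1.11 ± 0.32 (SE; limma adjusted p = 0.0317). unc5a (chromosome 14, 51164056 to 51619388) was at 0.555, 0.418 and 0.565 TPM under +/+ and 0.734, 0.957 and 1.67 TPM under -/-, a log2 fold change of 0.64 ± 0.21 (SE; limma adjusted p = 0.0454), and lost its call after rescaling (limma adjusted p = 0.0612). The labels did not overlap in dcc, unc5da or unc5a. With the uncalled unc5db, 4 of the 7 genes lay fully higher under the label -/-, against 38.2% of all tested genes. The most abundant of the family, unc5cb (chromosome 10, 1052591 to 1107558), was at 3.47, 4.07 and 5.09 TPM under +/+ and 5.16, 4.58 and 7.204 TPM under -/-, with a log2 fold change of 0.38 ± 0.19 (SE; limma adjusted p = 0.153). unc5db and unc5ca had log2 fold changes of 0.81 ± 0.28 (SE; limma adjusted p = 0.0517) and 0.51 ± 0.19 (SE; limma adjusted p = 0.0609), and with the replicate block unc5db, unc5ca and unc5cb were called higher (limma adjusted p = 0.00342 for unc5db, 0.02803 for unc5ca and 0.0207 for unc5cb). With the block on rescaled values unc5db was called and unc5ca and unc5cb were not (limma adjusted p = 0.0145 for unc5db, 0.0843 for unc5ca and 0.194 for unc5cb). The block called 43% of all tested genes higher, and 27.2% on rescaled values. The value for unc5b was 0.19 ± 0.14 (SE; limma adjusted p = 0.294).

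All 4 SLIT genes and all 4 ROBO genes rose, with median log2 fold changes of 0.63 and 0.94; after rescaling the calls of slit1a and slit2 were lost (limma adjusted p = 0.0816 for slit1a and 0.0607 for slit2) and those of the ROBO genes were kept. Among all tested genes 28.8% were higher, and 20.9% after rescaling. With 4 genes per family, no difference from these shares was tested. robo2 (chromosome 15, 39096736 to 39228226), the receptor that retinal axons need to reach the tectum in the zebrafish, was at 5.19, 5.499 and 8.91 TPM under +/+ and 13.01, 13.4 and 25.8 TPM under -/-, a log2 fold change of 1.32 ± 0.29 (SE; limma adjusted p = 0.0181). robo3 (chromosome 10, 31298972 to 31563049), which acts in axons that cross the midline, was at 5.55, 5.65 and 7.35 TPM under +/+ and 9.61, 8.19 and 12.8 TPM under -/-, a log2 fold change of 0.67 ± 0.18 (SE; limma adjusted p = 0.0281). robo4 (chromosome 10, 31244619 to 31284790), the vascular member, was at 1.53, 1.6001 and 3.22 TPM under +/+ and 4.22, 3.44 and 6.24 TPM under -/-, a log2 fold change of 1.00 ± 0.28 (SE; limma adjusted p = 0.0303). In all 3 the labels did not overlap, and robo1 had a log2 fold change of 0.88 ± 0.25 (SE; limma adjusted p = 0.03202). All 4 ROBO genes lay fully higher under the label -/-, as did 38.2% of all tested genes.

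The most abundant ligand gene of this system, slit1a (chromosome 13, 555321 to 638485), was at 6.7003, 6.504 and 8.68 TPM under +/+ and 10.2, 8.77 and 13.1 TPM under -/-, a log2 fold change of 0.51 ± 0.17 (SE; limma adjusted p = 0.0493). slit1b (chromosome 22, 34843282 to 34937464) was at 1.56, 1.88 and 1.75 TPM under +/+ and 2.97, 3.57 and 6.63 TPM under -/-, a log2 fold change of 1.06 ± 0.25 (SE; limma adjusted p = 0.0208). The midline repellent slit2 (chromosome 1, 23783349 to 23912788) was at 4.12, 4.43 and 5.97 TPM under +/+ and 6.69, 6.33 and 9.78 TPM under -/-, a log2 fold change of 0.59 ± 0.20 (SE; limma adjusted p = 0.0472). slit3 (chromosome 14, 24491818 to 24761161) was at 5.65, 5.72 and 7.97 TPM under +/+ and 9.54, 8.87 and 13.3 TPM under -/-, a log2 fold change of 0.67 ± 0.19 (SE; limma adjusted p = 0.0306). Every one of these 4 lay fully higher under the label -/-, as did 38.2% of all tested genes. The summed ROBO genes over the summed SLIT genes gave a ratio of 0.914, 0.8995 and 1.06 under +/+ and 1.19, 1.17 and 1.35 under -/-. Over all systems together, the summed receptors over the summed ligands gave 0.612, 0.618 and 0.676 under +/+ and 0.774, 0.7402 and 0.831 under -/-. Both ratios were higher in each library labelled -/- than in any labelled +/+, and neither has a background from other genes.

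The genome duplication of the fish lineage left many of these genes in pairs. A ratio of duplicates within a library is unchanged by rescaling, which divides every gene of a library by the same factor. The pairs here were formed by name, and not every pair need stem from the genome duplication. The genes epha4a and epha4b are neighbours, 158 kb apart on chromosome 2, and sema3ga and sema3gb both lie on chromosome 8. Over 32 pairs (an a copy over its b copy in 30, and plxnb2a.1 against each of its neighbours), the ratios of 15 did not overlap between labels. No such share was computed for pairs of other genes, so the count has no background here. Of single tested genes, 38.2% lay fully higher and 16.2% fully lower under the label -/-. Both members were called higher in 13 pairs, 1 member in 10 and neither in 8, and plxnb2a.1 against plxnb2a.2 had opposite calls. The largest differences were those of plxnb2a.1 over plxnb2a.2, 4.33 to 5.54 under +/+ and 15.3 to 23.98 under -/-, and of ntn1a over ntn1b, 1.12 to 1.43 under +/+ and 0.331 to 0.565 under -/-. Next came efna2a over efna2b, at 0.623 to 0.794 under +/+ and 1.34 to 1.69 under -/-. In the last of these pairs the more abundant copy was efna2b in every library labelled +/+ and efna2a in every library labelled -/-, and ntn1a and ntn1b likewise changed order. The ratio of slit1a over slit1b was 3.46 to 4.96 under +/+ and 1.98 to 3.42 under -/-, although both genes were called higher. The sema3fa over sema3fb ratio was 2.35 to 2.83 under +/+ and 3.404 to 4.51 under -/-. For efnb2a over efnb2b, where both were called higher, the ratio was 2.74 to 3.097 under +/+ and 2.798 to 3.002 under -/- and overlapped. With 3 libraries per label the exact two-sided permutation test cannot give a p below 0.1, and after adjustment over the 32 pairs the smallest was 0.213.

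**Figure D4:**
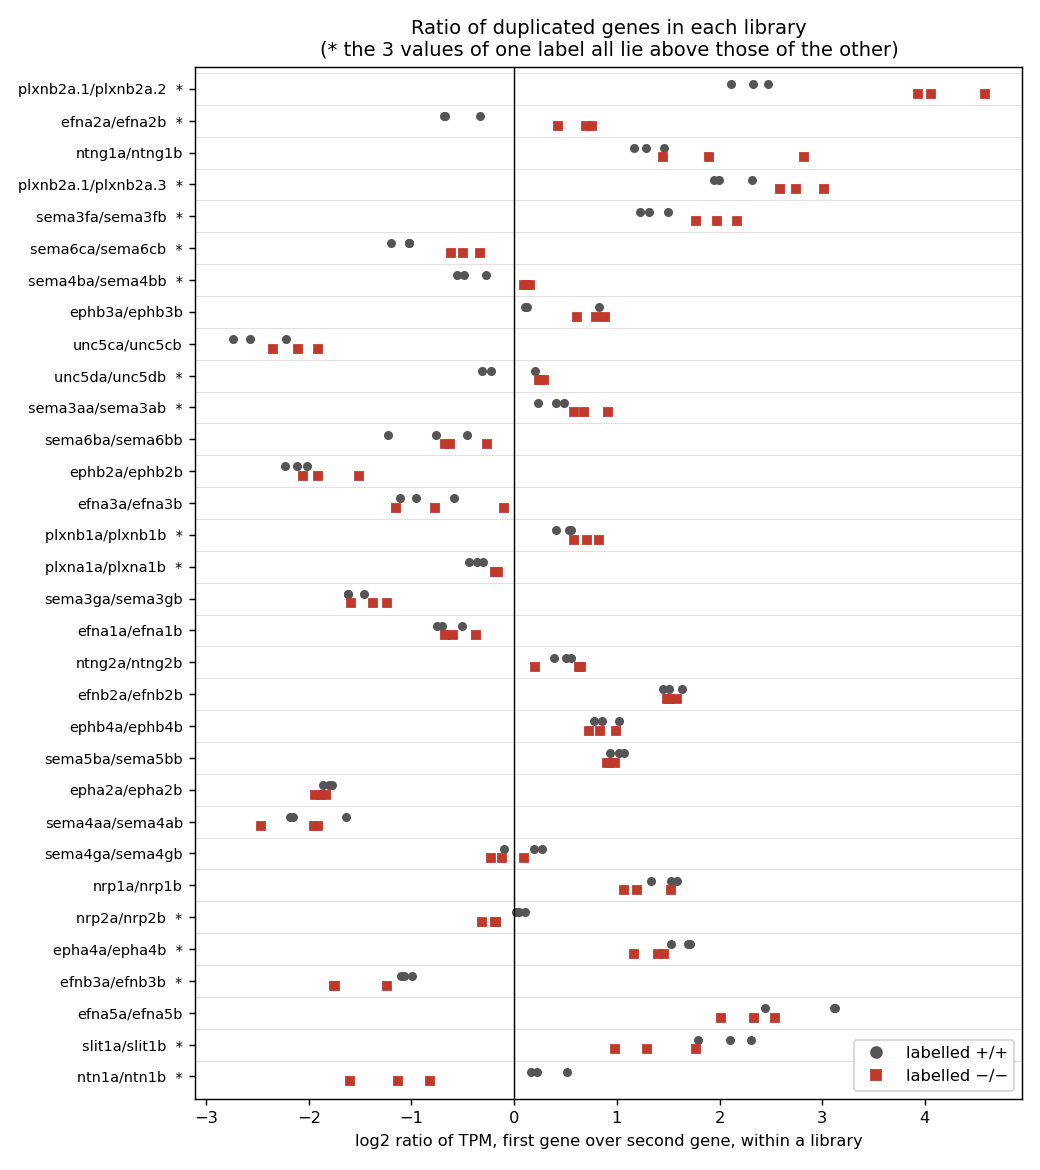
Log2 ratio of TPM, first gene over second gene, within each library for 32 pairs of duplicated guidance genes, ordered by the difference between labels. Grey circles are the 3 libraries labelled +/+ and red squares the 3 labelled -/-; the 15 pairs marked with an asterisk do not overlap between labels, with plxnb2a.1 over plxnb2a.2 at one end and ntn1a over ntn1b at the other.

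Guidance genes are long, and the median log2 fold change in this comparison was higher in longer genes. The members' gene models had a median span of 94.2 kb against 15.6 kb for all tested genes. Over all tested genes the median log2 fold change was 0.019 under 10 kb, 0.18 from 10 to 30 kb, 0.40 from 30 to 100 kb and 0.55 over 100 kb. For the members it was -0.15 in 3 genes under 10 kb, 0.096 in 15 genes from 10 to 30 kb, 0.49 in 36 genes from 30 to 100 kb and 0.70 in 49 genes over 100 kb. Over 100 kb, 71.4% of members and 53.2% of all tested genes were called higher, and from 30 to 100 kb 55.6% and 41.9%. From 10 to 30 kb the shares were 33.3% and 26.4%. The part of gene span in the members' counts was not tested.

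**Figure D5:**
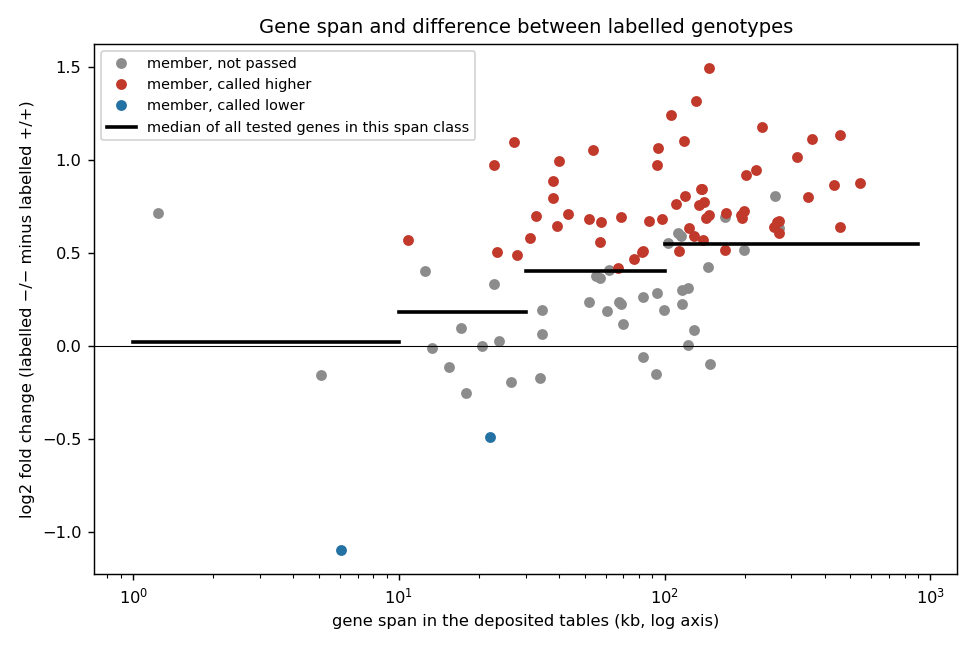
Log2 fold change of each of the 103 members against the span of its gene model in kb on a log axis, red where called higher, blue where called lower and grey where not called. Black bars give the median of all tested genes in 4 span classes, rising from 0.019 under 10 kb to 0.55 over 100 kb, and the members over 100 kb lie at or above 0 apart from a grey point.

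Several lists of cell type markers moved with the labels, and their part in the members' values was not tested; 28.8% of all tested genes were higher and 8.56% lower. Of 13 neuronal markers 11 were higher and none lower, and their summed level was 537 to 743 TPM under +/+ and 864 to 1244 TPM under -/-; snap25b, sypa and syt1a had log2 fold changes of 1.21 for snap25b, 0.89 for sypa and 1.06 for syt1a. Markers of vascular endothelium, where robo4, plxnd1, efnb2a and ephb4a also act, were higher for 5 of 6, summing to 22.6 to 28.4 TPM under +/+ and 32.5 to 43.4 TPM under -/-, with 0.88 for tie1, 0.68 for tek and 0.85 for kdrl. Oligodendrocyte lineage markers were higher for 5 of 6, summing to 78.2 to 99.1 TPM under +/+ and 115 to 151 TPM under -/-, with 0.87 for plp1b, 1.03 for mpz and 0.54 for mbpa. All 5 cartilage markers were higher, summing to 462 to 679.7 TPM under +/+ and 699 to 991 TPM under -/-, with 0.94 for acana, 0.81 for sox9a and 0.59 for col9a1a. Keratinocyte markers were lower for 3 of 6 and higher for none, summing to 12391 to 13341 TPM under +/+ and 10287 to 11391 TPM under -/-, with -0.44 for evpla, -0.42 for cyt1 and -0.27 for krt4. Astroglial markers were higher for 2 and lower for 2 of 7, summing to 1059 to 1076 TPM under +/+ and 979.5 to 1148 TPM under -/-, with 1.14 for slc1a2b, -0.38 for glula and -0.38 for her4.1. Of 5 skeletal muscle markers 1 was higher and none lower, summing to 23323 to 25142 TPM under +/+ and 25090.5 to 27076 TPM under -/-, with 0.30 for ckma, 0.18 for myhz2 and -0.16 for tnnt3b. None of 5 erythroid markers was called, with sums of 371 to 529 TPM under +/+ and 299.95 to 447 TPM under -/- and -0.63 for slc4a1a, -0.44 for epb41b and -0.21 for hbae1.1. After rescaling the neuronal list had 10 higher and 1 lower, the endothelial and oligodendrocyte lists 4 higher each, the cartilage list 3 higher, the keratinocyte and erythroid lists 3 lower each, the astroglial list 2 and 2, and the muscle list no call. The shares over all tested genes were then 20.9% higher and 21.3% lower. No marker that was tested stood at 0 in any library.

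The wider guidance pathway outside these families was read from 4 lists, whose counts stand against 28.8% of all tested genes higher and 8.56% lower, and 20.9% and 21.3% after rescaling. Of 26 receptor partners and adhesion molecules, 19 were higher and none lower, with a median log2 fold change of 0.80 (17 higher and 1 lower after rescaling). Among them cntn1b, a contactin at the axon surface, was at 1.41, 1.37 and 1.88 TPM under +/+ and 3.57, 4.41 and 6.07 TPM under -/-, a log2 fold change of 1.32 ± 0.20 (SE; limma adjusted p = 0.00755). The Down syndrome cell adhesion molecules dscama and dscamb, which act with netrin receptors, had log2 fold changes of 1.303 ± 0.21 (SE; limma adjusted p = 0.00955) and 1.601 ± 0.29 (SE; limma adjusted p = 0.0118). Of 15 other guidance ligands 6 were higher and none lower, with a median of 0.19, below the 0.21 of all tested genes; after rescaling 3 were higher and 1 lower. The morphogen shha, the neurotrophic factor gdnfa and the neurotrophin bdnf had log2 fold changes of 1.02 ± 0.19 (SE; limma adjusted p = 0.0129), 0.71 ± 0.17 (SE; limma adjusted p = 0.0215) and 0.45 ± 0.12 (SE; limma adjusted p = 0.0241), and bdnf lost its call after rescaling (limma adjusted p = 0.0743).

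Of 59 cytoplasmic effectors, the kinases, GTPase regulators and actin and tubulin binding proteins downstream of the receptors, 32 were higher and 2 lower, with a median log2 fold change of 0.52, and after rescaling 25 were higher and 7 lower. The Rac activator tiam1a and the collapsin response mediator dpysl5b had log2 fold changes of 0.70 ± 0.11 (SE; limma adjusted p = 0.00963) and 1.27 ± 0.21 (SE; limma adjusted p = 0.0105). The cofilin gene cfl1l was lower, at -0.46 ± 0.083 (SE; limma adjusted p = 0.0118). Of 23 genes for the processing and scaffolding of ephrins and SLIT, 7 were higher and none lower, with a median of 0.28, and after rescaling 4 were higher and 5 lower. The higher count is near the 28.8% of all tested genes, and those after rescaling are near the 20.9% higher and 21.3% lower of all tested genes. The heparan sulfate enzyme hs6st3a and the scaffolds grip1 and grip2a, which bind ephrin-B tails, had log2 fold changes of 0.52 ± 0.13 (SE; limma adjusted p = 0.0235), 0.82 ± 0.21 (SE; limma adjusted p = 0.0243) and 0.55 ± 0.15 (SE; limma adjusted p = 0.0261). The call of hs6st3a was lost after rescaling (limma adjusted p = 0.0511).

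In the authors' deposited table, whose direction is not stated, all 103 members had an adjusted p. There 59 had an adjusted p under 0.05 with a log2 fold change below 0 and 6 with one above 0, where 18.4% and 13.5% of the genes with an adjusted p did so. In the authors' deposited table ntng1a was at -1.32 ± 0.23 (log2 fold change ± SE), robo2 at -1.14 ± 0.21 and epha6 at -0.87 ± 0.16. Some members called higher with limma did not pass 0.05 there. Their authors' adjusted p was 0.0585 for slit1a, 0.0696 for ephb3b, 0.0783 for efna3a, 0.0875 for robo4, 0.112 for efnb2b and 0.144 for sema3d. The same deposited table from the authors gave 1.48 ± 0.18 for plxnb2a.2 and 0.84 ± 0.13 for ntn5. The targeted genes have values of the same sign as the members that were higher under the label -/-, -1.73 for stim2a and -1.19 for stim2b, in the authors' deposited table.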

How the data were processed

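RNA-seq of 6 pools of whole larvae was read from the authors' gene tables, which per the file headers give coverage (signal per base), FPKM and TPM for each gene, and no counts. Per the submitters' processing notes the tools included DESeq2 1.16.1, STAR 2.5.3a and StringTie 1.3.3b; hg38 and danRer11 are listed as builds. Coordinates are as deposited; the files do not name their build. The authors' deposited comparison table holds log2 fold changes, a test score and p-values, without stating its direction. The files give no counts; the most common ratio of deposited coverage to FPKM per library follows relative depth, while absolute depth needs the aligned bases per fragment, which are not given.

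The 22104 genes that reached 0.5 TPM in 3 or more libraries were tested with limma 3.58.1 in R 4.3.3 (lmFit, then eBayes with trend) on log2(TPM + 0.5), which understates changes of low genes, with Benjamini-Hochberg adjustment over all of them and calls at 0.05. On simulated data over 22104 genes for this comparison, 93% of 100 genes given a log2 change of 1, and 100% of 100 given 2, were recovered, with 7 false calls. The simulated noise was drawn independently for each gene and library, without the shared deviations of same-numbered libraries given below. These rates may therefore not hold for the deposited values. Alternatives were 2 other scalings, FPKM, other pseudocounts and filters, no trend, each library left out in turn and the replicate number as a block. Same-numbered libraries deviated together (correlations 0.22, 0.169 and 0.439), a pairing seen in the values alone and not stated in any label. Differently numbered, +/+ replicate 1 correlated at 0.252 with -/- replicate 2, and +/+ replicate 2 at 0.063 with -/- replicate 1. Values were centred within each label, so replicate 3 standing apart in both labels can by itself raise all of these correlations. The same-numbered values are therefore not separate evidence of pairing by number. Values in every library are given for the most abundant gene and the 3 smallest p of each of 9 families and the 6 largest called changes in each direction; some other genes were chosen after their values were seen. The members and lists were chosen with earlier results of these data known. Names come from the RefSeq table of GRCz12tu and a table of Ensembl IDs, which named 29201 of 32520 genes.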

Additional observations from a re-analysis of the deposited data

How the results depend on the processing

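The count of 60 higher members ranged from 1 to 70 and that of 2 lower members from 1 to 2 over the fits that left out libraries, the extremes being those without +/+ replicate 1 or 2 (1 higher) and without replicate 3 of both labels (70 higher, an alternative added after seeing the data). With the replicate block the counts were 76 and 2, and no call was lost. Rescaling by the median gene ratio gave 51 and 9, quantile scaling 47 and 9, and the block on rescaled values 64 and 12. Testing all genes with no filter gave 36 and 1. FPKM gave 63 and 2, pseudocounts of 0.1 and 1 gave 61 and 2 and 59 and 2, a filter of 1 TPM gave 61 and 2, and no trend gave 58 and 2. Shares over all tested genes are not given for quantile scaling, no filter, FPKM, the pseudocounts, the 1 TPM filter or no trend. Those counts therefore have no background here and show only how the members' calls moved.

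No called member changed direction under any alternative listed here. Uncalled members crossed 0 as follows, as log2 fold changes. With rescaled values, with or without the replicate block, they were -0.097 for efnb3a, -0.18 for ntn1a, -0.022 for ntn2, -0.13 for ntn4, -0.11 for sema3fb, -0.0049 for sema3gb, -0.069 for sema4aa, -0.035 for sema4e, -0.18 for sema7a and -0.0031 for unc5b. With quantile scaling they were -0.063 for SEMA3G, -0.19 for efnb3a, -0.25 for ntn1a, -0.12 for ntn2, -0.22 for ntn4, -0.013 for plxnb3, -0.074 for sema3ab, -0.21 for sema3fb, -0.071 for sema4aa, -0.081 for sema4ab, -0.0026 for sema4ba, -0.028 for sema4e, -0.28 for sema7a and -0.094 for unc5b, and with FPKM -0.067 for ntn1a, -0.015 for ntn4 and -0.057 for sema7a. Over the fits without libraries the ranges were -0.060 to 0.071 for efna1a, -0.062 to 0.11 for ntn1a, -0.050 to 0.18 for ntn4, -0.12 to 0.014 for sema3e, -0.098 to 0.25 for sema3fb, -0.12 to 0.15 for sema7a and -0.064 to 0.058 for unc50. The cause of these changes was not tested. Relative depth, from coverage over FPKM, was lowest in -/- replicate 2; the files give no counts and no counting error was computed. Values near 0.5 TPM, such as those of unc5a and dcc, are compressed by the pseudocount.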
